A study of Mus musculus with 6 samples.

Results

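Interferon-stimulated genes and genes of major histocompatibility complex (MHC) class I antigen presentation were examined in messenger RNA of mouse gastrocnemius, a fast-twitch calf muscle. The 39 genes were taken by symbol from the deposited table of 54532 genes. Of these, 38 passed the filter on low counts, and Oas3 did not. All mice were C57BL/6J, 3 months old, and from the age of 4 weeks drank water with 0.2% doxycycline. The control group of 3 libraries carried Mck cre, a Cre recombinase under the muscle creatine kinase promoter, which is active in muscle fibres. The second group of 3 libraries carried Mck cre and Tg Glut1-Hk2-Pfkfb3, a transgene named for a glucose carrier, a hexokinase and a regulator of glycolysis, and is called transgenic here because the labels name it so. The comparison between the groups addresses what the transgene is accompanied by in muscle RNA. Whether the 3 libraries of a group came from separate animals is not stated in the labels, and the p-values therefore cover the spread among these libraries, which may be technical.

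Interferons are secreted cytokines that bind receptors on most cell types and act through JAK kinases and STAT proteins. Type I interferon leads to a complex with STAT2 and IRF9, which binds the interferon-stimulated response element in the promoters of antiviral genes. Interferon gamma acts in part through IRF1 and raises the genes that load and present peptides on MHC class I. Resting muscle fibres carry little class I on their surface, whereas lymphocytes, macrophages and endothelial cells carry much.

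Library totals ran from 19546456 to 24665024 counts. Levels are given as CPM, counts scaled to a common library size, after trimmed-mean (TMM) scaling, in which 3 counts correspond to 0.120 to 0.145 CPM. The genes that the transgene is named for, read as a check of the labels, did not pass the test as higher. Pfkfb3 was at 579 to 1585 CPM in control and 120 to 542 CPM in transgenic libraries, Slc2a1 at 11.98 to 23.3 and 8.05 to 13.5 CPM, and Hk2 at 156 to 187 and 168 to 341 CPM. The labels were therefore not borne out by these genes. Whether reads of the transgene would be counted at these mouse genes is not known here, so these levels cannot decide whether the labels are right. Each direction below compares the libraries by their labels. Control replicate 1 stood apart by RNA of several immune cell types. The 9 B cell markers summed to 609 CPM there and to 7.23 to 57.2 CPM in the other 5 libraries, and the 15 T and NK cell markers to 164 CPM against 1.51 to 8.19 CPM. It also had the highest sums of the 7 dendritic cell markers (41.0 CPM against 9.45 to 17.9) and the 9 neutrophil markers (12.5 CPM against 1.46 to 5.43). Taken singly, 5 of the 7 and 8 of the 9 were highest there. The 10 macrophage markers did not set it apart, at 173 CPM against 77.5 to 192 CPM, with 4 of the 10 highest there. Results are given with and without that library. The 10 muscle fibre markers were detected in each library and summed to 125730 to 184368 CPM. In RNA of whole muscle, fewer cells of a type and less RNA per cell cannot be told apart.

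With all 6 libraries 0 of the 38 tested genes passed edgeR's quasi-likelihood test at an adjusted p of 0.05, and 3 had an unadjusted p under 0.05 (Ifi27, Trim25 and Rsad2), against 3121 of all 14973 genes. Among all 14973 genes tested, 1.30% passed. DESeq2 called 1 of the 38, Rsad2, and limma-voom called 0. The log2 fold changes, transgenic against control, ran from -0.77 for Mx1 to 0.93 for Rsad2, with a median of 0.20 and 29 of 38 positive. The median over all tested genes was -0.03. Groups of CPM values did not overlap for 2 of the 38, Ifi27 and Rsad2, both with transgenic above control. Over all genes, 13.8% had every transgenic above every control library and 13.6% had the reverse.

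Without control replicate 1, 6 of the 38 genes rose in the transgenic libraries in edgeR and 0 fell. The 6 were Tap1, Tap2, B2m and H2-T23 of class I presentation, the ISG15 ligase Trim25 and the interferon-alpha-inducible gene Ifi27. Among all genes 6.08% passed as higher and 6.99% as lower in that comparison, so the share of the 38 that passed as higher lay above the share of all genes. The number depended on the tool and the scaling. DESeq2 called 15 of the 38, all higher, and 1387 of all 14973 genes as higher. With library totals as the scaling edgeR called 26 of the 38, all higher, and 3031 of all genes as higher. The 9 further genes in DESeq2 were H2-D1, Tapbp, Stat2, Ddx58, Ifit3, Oas2, Oasl2, Rsad2 and Bst2. Statements that a gene passed or rose refer to edgeR with TMM scaling unless another tool is named. The median log2 fold change of the 38 was 0.77, with 37 of 38 positive, against a median of 0.01 over all genes. Of the 38, 31 had each of the 3 transgenic libraries above both remaining controls, and the same separation held for 26.8% of all genes. An unadjusted p under 0.05 was reached by 30 of the 38 and by 5213 of all 14973 genes. Leaving out a second control library left 0 of the 38 past the threshold, and 12 and 18 of all genes without replicates 2 and 3 respectively. In these fits the lone control is assumed to vary like the transgenic libraries, which alone give the spread. The fold changes stayed near their size, with medians of 0.70 and 0.81 and 37 and 36 of the 38 positive, and 10 and 15 of the 38 had an unadjusted p under 0.05. The genes share their libraries and often their regulators, so the 38 are not independent observations.

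**Figure D1:**
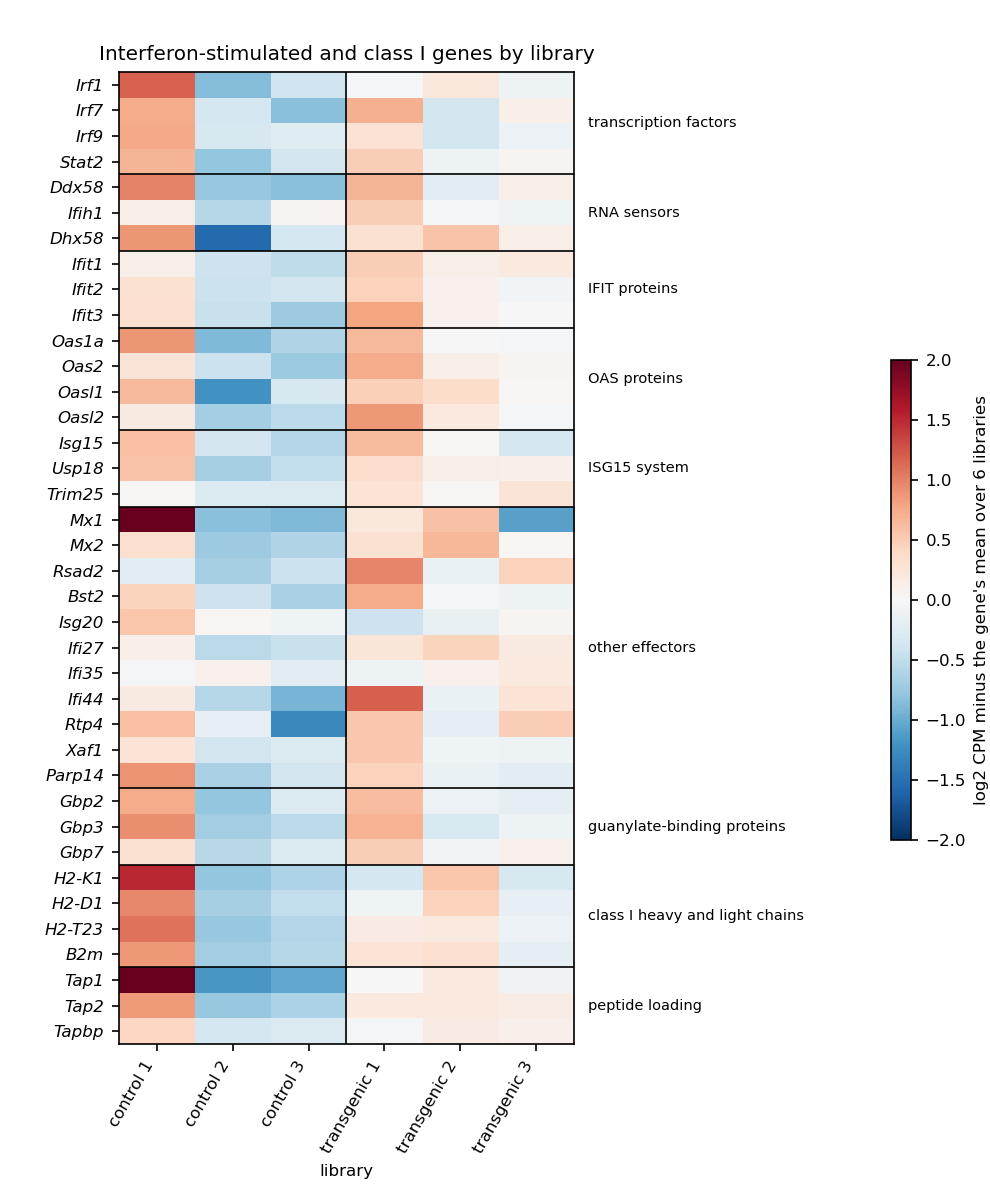
Level of each of the 38 tested genes (rows, grouped by role) in each library (columns), as log2 CPM minus the mean of that gene over the 6 libraries, with colours capped at 2 in either direction. Control replicate 1 was the highest library for 22 genes and transgenic replicate 1 for 13, whereas control replicate 2 was the lowest for 24 and control replicate 3 for 11.

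The plot of levels by library shows where the 2 comparisons part. Control replicate 1 was the highest of the 6 libraries for 22 of the 38 genes (57.9%), and it was highest for 19.9% of all tested genes. Transgenic replicate 1 was highest for 13 (34.2%, against 21.1% of all genes). Neither control replicate 2 nor control replicate 3 was highest for any of them, and together they were lowest for 35.

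The class I molecule pairs a heavy chain, here H2-K1, H2-D1 or the nonclassical H2-T23, with the light chain beta-2 microglobulin, encoded by B2m. B2m (ENSMUSG00000060802, GRCm38 chromosome 2, 122147686 to 122153083) was at 208, 70.03 and 76.7 CPM in control replicates 1, 2 and 3 and at 137, 142 and 98.9 CPM in transgenic replicates 1, 2 and 3. Control replicate 1 lay above every transgenic library and the other controls lay below every one. The log2 fold change of B2m was 0.09 ± 0.41 (SE) with all 6 libraries (edgeR adjusted p = 0.925) and 0.78 ± 0.17 without control replicate 1 (adjusted p = 0.0310). H2-T23 (ENSMUSG00000067212, chromosome 17, 36029773 to 36032855), the heavy chain of Qa-1, which is read by natural killer receptors, was at 68.9, 19.2 and 21.7 CPM in controls and at 36.4, 37.3 and 29.998 CPM in transgenic libraries. Its 3 transgenic values again fell between control replicate 1 and the other controls. Its log2 fold change went from -0.08 ± 0.46 (adjusted p = 0.939) to 0.76 ± 0.14 (adjusted p = 0.0220).

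The classical heavy chains showed the same order of libraries with wider spread. H2-K1 was at 423 CPM in control replicate 1, at 87.8 and 97.9 CPM in the other controls and at 117, 219 and 119.99 CPM in transgenic libraries. Transgenic replicate 2 held the highest transgenic value. H2-D1 was at 345, 112 and 126 CPM in controls and at 167, 243 and 159 CPM in transgenic libraries. Without control replicate 1 the log2 fold changes were 0.71 ± 0.28 for H2-K1 (adjusted p = 0.116) and 0.67 ± 0.20 for H2-D1 (adjusted p = 0.0621). Neither passed in edgeR, and DESeq2 called H2-D1. Class I genes are near-identical in stretches, so reads may have been split between H2-K1, H2-D1, H2-T23 and their neighbours on chromosome 17, and single values among them are uncertain.

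Peptides reach class I through the transporter subunits TAP1 and TAP2 and the bridging protein tapasin, encoded by Tapbp. Tap1 (ENSMUSG00000037321, chromosome 17, 34187553 to 34197225) was at 33.2 CPM in control replicate 1 and at 3.54 and 3.87 CPM in the other controls, an 8.94-fold gap that was the widest among the 38 genes. The transgenic libraries had 7.93, 9.11 and 7.57 CPM. Its log2 fold change turned from -0.73 ± 0.80 (adjusted p = 0.631) to 1.14 ± 0.18 without control replicate 1 (adjusted p = 0.0162). Tap1 overlaps 212 bases of the immunoproteasome gene Psmb9 on the opposite strand, and the strand setting of the counts is not given in the sources used here. Tap2 (ENSMUSG00000024339, chromosome 17, 34203527 to 34216321) was at 19.9, 6.52 and 7.10 CPM in controls and at 12.6, 12.7 and 12.3 CPM in transgenic libraries. The transgenic libraries varied little, at 12.5 ± 0.227 CPM (SD, n = 3), against 6.81 ± 0.408 CPM in control replicates 2 and 3. Without control replicate 1 Tap2 rose by a log2 fold change of 0.88 ± 0.14 (adjusted p = 0.0171). Tapbp was at 52.0, 30.8 and 32.0 CPM in controls and 38.2, 43.7 and 42.1 CPM in transgenic libraries. Its log2 fold change was 0.40 ± 0.11 without control replicate 1 (adjusted p = 0.0575). Tapbp shares 3421 bases with Zbtb22 on the same strand, so its value is uncertain.

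**Figure D2:**
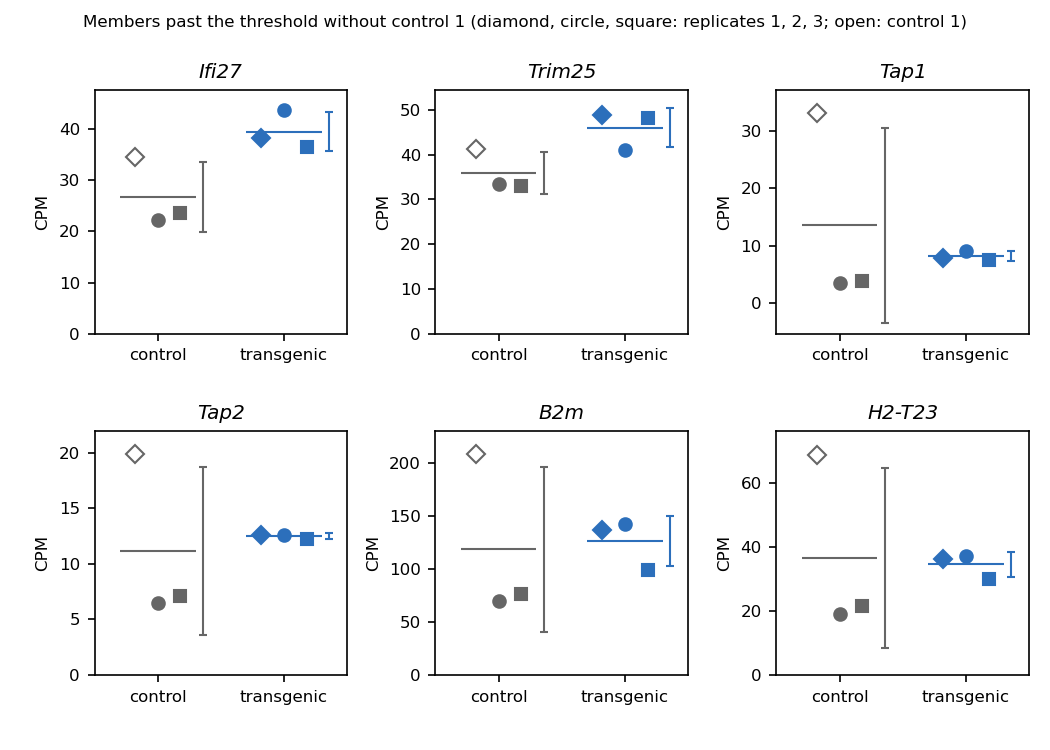
CPM in each library for the 6 genes that passed without control replicate 1. Diamonds, circles and squares are replicates 1, 2 and 3, the open diamond is control replicate 1, horizontal lines are means and bars are SDs over all 3 libraries of a group. In Tap1, Tap2, B2m and H2-T23 control replicate 1 lies above the transgenic libraries and the other controls lie below them, whereas in Ifi27 all 3 controls lie below all 3 transgenic libraries and in Trim25 control replicate 1 lies just above the lowest of them.

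Among the 6 genes, Ifi27 and Trim25 moved least in fold change when control replicate 1 was left out. Ifi27 (ENSMUSG00000064215, chromosome 12, 103434211 to 103440239) encodes a small membrane protein. It was at 34.6, 22.2 and 23.6 CPM in controls and at 38.2, 43.7 and 36.6 CPM in transgenic libraries, so the groups did not overlap. Its log2 fold change was 0.56 ± 0.19 with all libraries (adjusted p = 0.165) and 0.79 ± 0.12 without control replicate 1 (adjusted p = 0.0161). Trim25 (ENSMUSG00000000275, chromosome 11, 88999376 to 89020293) encodes a ubiquitin and ISG15 ligase that acts on the RNA sensor RIG-I. It was at 41.2, 33.4 and 33.0 CPM in controls and at 48.8, 41.0 and 48.2 CPM in transgenic libraries. Control replicate 1 exceeded the lowest transgenic library by a narrow margin. The log2 fold change of Trim25 was 0.36 ± 0.14 (adjusted p = 0.199) and then 0.47 ± 0.12 (adjusted p = 0.0447). Isg15, the ubiquitin-like modifier itself, had 21 to 55 counts per library and a log2 fold change of 0.65 ± 0.37 without control replicate 1 (adjusted p = 0.255). Usp18, which removes ISG15 and restrains the interferon receptor, was at 0.77 ± 0.26 (adjusted p = 0.0860).

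Rsad2, which encodes the antiviral enzyme viperin, had the highest log2 fold change with all 6 libraries. It was at 9.09, 6.62 and 7.79 CPM in controls and at 20.7, 9.55 and 14.5 CPM in transgenic libraries. The transgenic libraries differed among themselves by more than the controls did, with replicate 1 highest. The fold change of 0.93 ± 0.29 did not pass in edgeR (adjusted p = 0.139, and 0.0632 without control replicate 1), and passed in DESeq2 (adjusted p = 0.0400 with all 6 libraries and 0.0103 without control replicate 1). Over all alternatives to the comparison of 6 libraries its adjusted p ran from 0.0400 to 0.326.

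Promoter sequences are shown for the presentation and antiviral genes in which the element read by the STAT and IRF factors could be seen. RefSeq promoters of build GRCm38.p6, from 250 bases before to 50 after a start site, matched 30 of the 39 genes in 37 windows. The core GAAANNGAAA, read on both strands and so also as TTTCNNTTTC, was present in 15 of these windows (40.5%), each of a different gene, against 3.44% of all 32851 windows. Of the 6 genes that passed without control replicate 1, B2m and H2-T23 held a match, Tap1 and Trim25 held none, and Ifi27 and Tap2 had no window. The gamma-activated core TTCNNNGAA, which reads the same on both strands, was present in 7 windows (18.9%) against 8.30% of all. The genes were picked as interferon-stimulated and class I genes, so neither share is a result of these libraries. The sequences run 5′ to 3′ along the gene, end before the start site, and carry the match in capitals. The first 3 belong to the genes of highest mean level with a match before the start site, and the rest were added after the matches were seen, for Isg15 with 3 overlapping matches and for the guanylate-binding genes, in which each member had one.
B2m, chr2:122147533-122147572, plus strand: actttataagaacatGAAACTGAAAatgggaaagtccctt
H2-T23, chr17:36032801-36032840, minus strand: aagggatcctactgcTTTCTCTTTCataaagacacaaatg
Bst2, chr8:71537572-71537617, minus strand: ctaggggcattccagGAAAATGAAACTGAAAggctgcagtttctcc
Isg15, chr4:156200860-156200911, minus strand: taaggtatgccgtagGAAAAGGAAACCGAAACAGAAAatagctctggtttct
Gbp2, chr3:142620589-142620628, plus strand: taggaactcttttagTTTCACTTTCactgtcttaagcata
Gbp3, chr3:142559984-142560029, plus strand: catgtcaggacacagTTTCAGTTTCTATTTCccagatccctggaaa
Gbp7, chr3:142530268-142530307, plus strand: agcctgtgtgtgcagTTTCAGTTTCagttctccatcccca
The match began 139 bases before the start site in B2m, 124 in H2-T23 and 45 to 59 in the Gbp genes. A match describes these letters and not the binding of a factor.

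**Figure D3:**
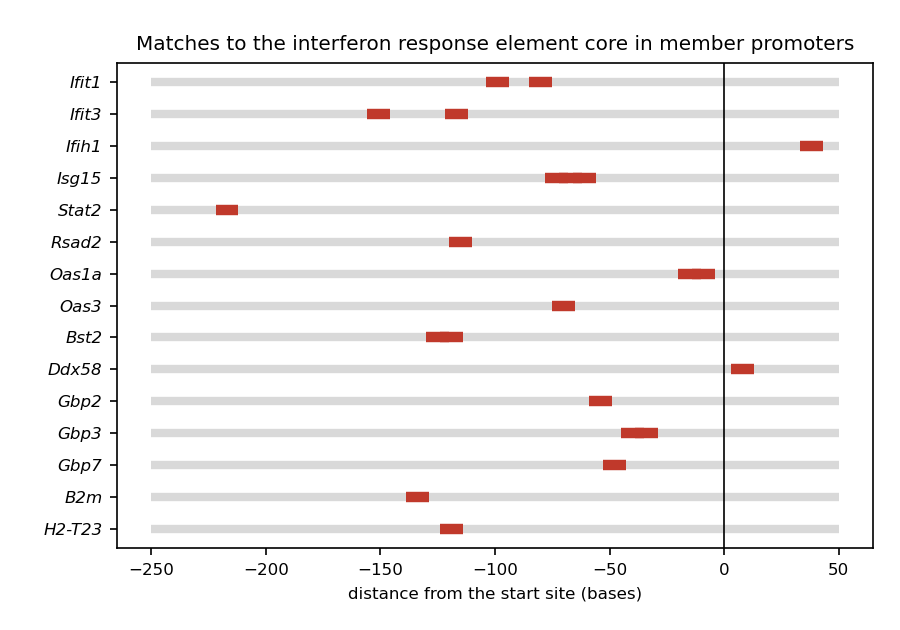
Position of each match to the core GAAANNGAAA or TTTCNNTTTC (red) in the promoter windows of the 15 genes that held one (grey, 250 bases before to 50 after the start site at 0). In 13 genes the matches lie before the start site, from 222 bases before it in Stat2 to 14 in Oas1a, and in Ifih1 and Ddx58 they lie after it.

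The transcription factors that carry the interferon signal are Stat2 and Irf9, partners in the type I complex, Irf7, which amplifies type I interferon, and Irf1, which carries much of the interferon gamma response. None of the 4 passed in edgeR in either comparison, and DESeq2 called Stat2 without control replicate 1. Irf1, the factor of highest level per length, was at 18.9, 4.54 and 6.31 CPM in controls and at 8.10, 9.74 and 7.77 CPM in transgenic libraries. The single high value was control replicate 1. Its log2 fold change was -0.22 ± 0.49 with all libraries and 0.65 ± 0.21 without control replicate 1 (adjusted p = 0.0754). Stat2 was at 0.72 ± 0.23 in the latter comparison (adjusted p = 0.0742), Irf7 at 0.80 ± 0.33 (0.133) and Irf9 at 0.24 ± 0.22 (0.456). Irf9 overlaps Rnf31 by 123 bases on the same strand.

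The cytoplasmic RNA sensors are RIG-I, encoded by Ddx58, MDA5, encoded by Ifih1, and their regulator LGP2, encoded by Dhx58. Ddx58 was at 11.3, 3.36 and 3.18 CPM in controls and at 9.09, 4.85 and 6.13 CPM in transgenic libraries. Replicate 1 was the highest library of each group. Without control replicate 1 its log2 fold change was 1.04 ± 0.29, and its adjusted p was 0.0569 in edgeR. DESeq2 called it. Dhx58 was at 1.17 ± 0.38 (adjusted p = 0.0798) on 11 to 68 counts per library, and Ifih1 at 0.37 ± 0.28 (0.374).

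The IFIT proteins bind viral RNA that lacks host cap marks. Ifit3, the highest of the 3 per length, was at 5.26, 3.07 and 2.54 CPM in controls and at 7.27, 4.46 and 4.17 CPM in transgenic libraries. Both groups again had their maximum in replicate 1. On the 5 libraries without control replicate 1, the log2 fold changes were 0.92 ± 0.30 for Ifit3 (adjusted p = 0.0792), 0.74 ± 0.24 for Ifit1 (0.0768) and 0.58 ± 0.21 for Ifit2 (0.0947). None passed in edgeR, and DESeq2 called Ifit3 there. Ifit3 has a close copy, Ifit3b, which could share its reads. The log2 fold change of Ifit3b was -0.28 ± 0.29 without control replicate 1, opposite in sign to that of Ifit3.

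Among the OAS proteins, the active enzymes sense double-stranded RNA and start RNA decay through RNase L, a role that not every OAS-like member shares. Oas2 was at 5.88, 3.64 and 2.95 CPM in controls and at 8.18, 5.33 and 5.09 CPM in transgenic libraries. Oasl2 was at 6.30, 3.45 and 3.83 CPM in controls and at 10.2, 6.35 and 5.45 CPM in transgenic libraries. In both genes each transgenic library exceeded control replicates 2 and 3. With control replicate 1 left out, the log2 fold changes of the 4 tested members lay close together, from 0.91 for Oas2 to 1.01 for Oasl2, with edgeR adjusted p-values from 0.0631 to 0.117. DESeq2 called Oas2 and Oasl2 there. Oas3, below the filter, had 40, 1 and 4 counts in controls and 17, 6 and 6 counts in transgenic libraries. Oas1a belongs to a cluster of close copies, so its counts are uncertain.

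The guanylate-binding proteins are interferon gamma-inducible GTPases that attack the membranes of intracellular pathogens. Gbp2 was at 9.34, 3.26 and 4.61 CPM in controls and at 8.59, 5.19 and 4.93 CPM in transgenic libraries. Replicate 1 stood above the others in each group. On the 5 libraries without control replicate 1, the log2 fold changes of Gbp2, Gbp3 and Gbp7 were 0.66, 0.78 and 0.61, with adjusted p-values of 0.167, 0.133 and 0.0979. None passed in edgeR or in DESeq2.

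The remaining effectors were uneven. Bst2, or tetherin, which holds budding virus at the cell surface, was at 19.1, 10.6 and 8.99 CPM in controls and at 23.5, 13.6 and 13.1 CPM in transgenic libraries, with a log2 fold change of 0.78 ± 0.27 without control replicate 1 (adjusted p = 0.0941). Ifi44 had the highest fold change of that comparison, at 1.30 ± 0.45 (adjusted p = 0.0915), on 20 to 97 counts per library. Rtp4, Mx2, Parp14 and Xaf1 had positive values, the lowest 0.48 in Xaf1, and did not pass. Mx1, a gene of the GTPase family, had 65 counts in control replicate 1 and 8 to 21 in the others. The exonuclease gene Isg20 was the single member with a negative value, at -0.14 ± 0.26, and Ifi35 was at 0.13 ± 0.17, with overlapping groups in both.

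**Figure D4:**
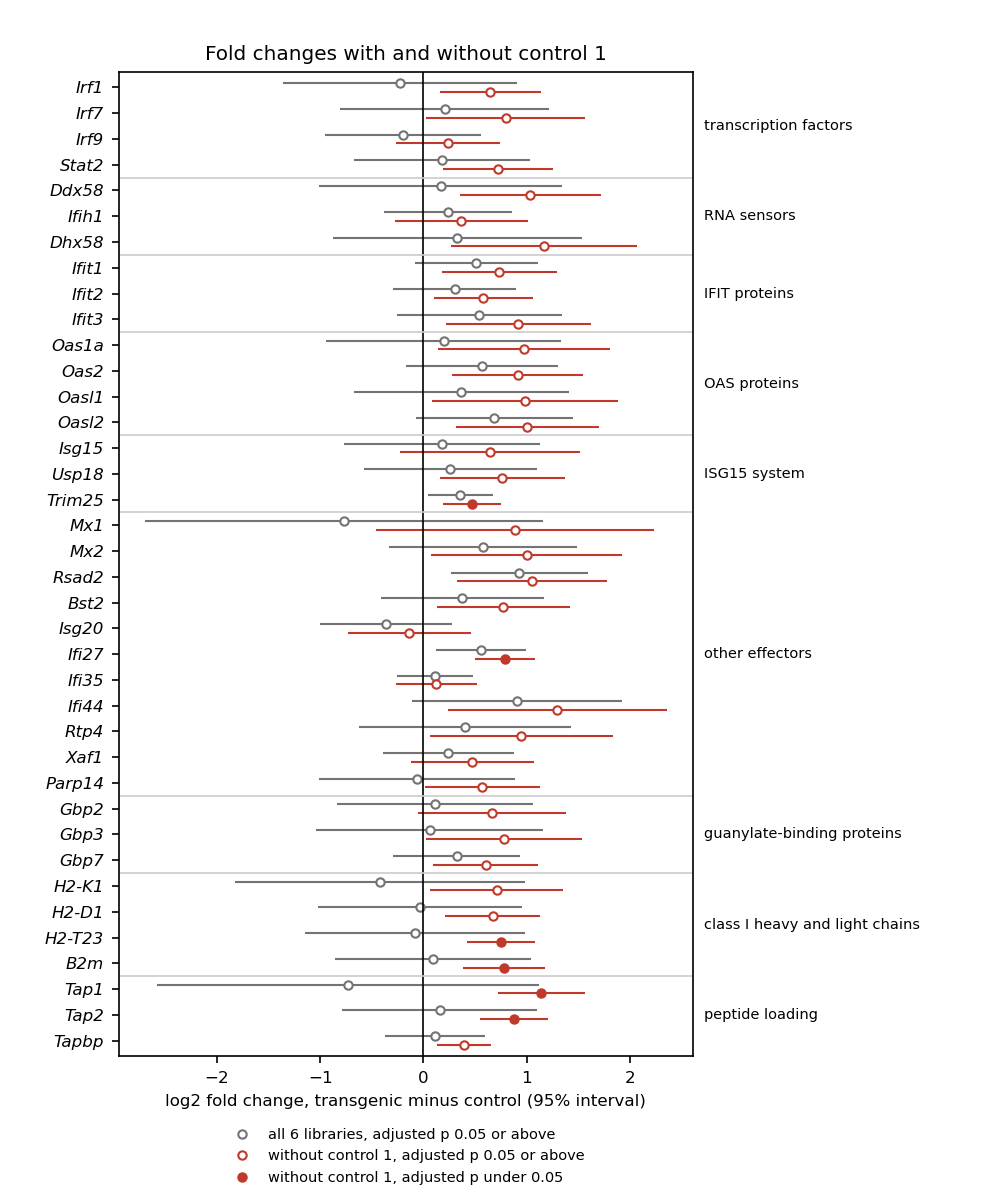
Log2 fold change of each tested gene, transgenic minus control, with its 95% interval, for all 6 libraries (grey) and without control replicate 1 (red). Filled points passed an adjusted p of 0.05. The grey intervals of Tap1 and Mx1 are the widest, and 37 of the 38 red points lie right of 0.

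Per length, B2m, H2-D1 and H2-K1 had the highest levels of the 39 genes. On the deposited FPKM scale (fragments scaled by gene length and library size), B2m was first, at 137 ± 89.7 in controls and 146 ± 26.9 in transgenic libraries (SD, n = 3 each). H2-D1 (75.1 ± 50.2 and 73.5 ± 18.1 FPKM) and H2-K1 (77.4 ± 72.5 and 58.2 ± 22.3 FPKM) came next and did not differ from each other beyond their spread. Ifi27 (18.2 ± 4.54 and 26.9 ± 2.55 FPKM), Bst2 (14.2 ± 5.91 and 18.5 ± 6.31), H2-T23 (12.6 ± 9.60 and 11.9 ± 1.32) and Tapbp (11.6 ± 3.54 and 12.5 ± 0.926) followed. Their ranges overlap in controls. Trim25 and Ifi35 had means over all libraries of 7.10 and 6.23 FPKM, and the other 30 genes had means from 0.0735 for Oas3 to 3.12 for Tap2. Control replicate 1 held the highest control value of each class I chain.

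High values in replicate 1 took different forms in the groups. Control replicate 1 exceeded both other controls in 37 of the 38 genes, against 39.0% of all tested genes. The median ratio of control replicate 1 to the mean of control replicates 2 and 3 was 2.92 for the 7 class I chain and peptide-loading genes and 1.98 for the 31 other genes tested. Transgenic replicate 1 exceeded both other transgenic libraries in 24 of those 31 and in 0 of the 7 class I genes, against 39.9% of all tested genes. Its median ratio to transgenic replicates 2 and 3 was 1.45 for the 31, highest in the guanylate-binding (1.70) and OAS (1.58) groups, and 0.951 for the 7. No test of this difference between gene groups was made.

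Markers of other cell types moved with these libraries. In control replicate 1 all 9 B cell markers and 13 of 15 T and NK cell markers were at their highest. Among the T and NK cell markers 3 of 15 were at 0 counts in control replicate 2 and 4 in control replicate 3, Cd3d in both, and none in control replicate 1. In the transgenic group 7, 0 and 3 were at 0 in replicates 1, 2 and 3. In transgenic replicate 1 10 of 11 endothelial markers exceeded both other transgenic libraries, and their sum was 903 CPM against 516 and 548 CPM in transgenic replicates 2 and 3 and 415 to 528 CPM in controls, with no marker at 0. The B cell and T and NK cell sums of transgenic replicate 1 were low, at 7.23 and 2.02 CPM.

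Beside the comparison without control replicate 1, the 10 macrophage markers, none of them at 0, summed to 77.5 and 127 CPM in control replicates 2 and 3 and to 145 to 192 CPM in transgenic libraries. The 7 dendritic cell markers summed to 10.6 and 9.45 CPM against 13.1 to 17.9 CPM, with at most 1 of them at 0 in a library. The 11 endothelial markers gave 415 and 473 CPM against 516 to 903 CPM. The 9 neutrophil markers gave 1.46 and 2.44 CPM against 3.10 to 5.43 CPM, with Ly6g and Mpo at 0 in these 5 libraries. Muscle fibre markers summed to 173231 and 184368 CPM against 125730 to 157443 CPM, and 6 fibroblast markers to 854 and 1250.1 CPM against 1199 to 1767 CPM. The T and NK cell markers gave 1.51 and 1.66 CPM against 2.02 to 8.19 CPM, and the B cell markers 8.60 and 14.9 CPM against 7.23 to 57.2 CPM. Of these 8 lists, the sums of all but the fibroblast and B cell lists separated the transgenic libraries from control replicates 2 and 3. Single markers did not all follow their sums. In the muscle fibre list Mylpf was higher in each transgenic library than in these controls, and Acta1, Myh4, Myh1 and Myh2 overlapped. Egfl7, Cldn5, Tie1 and Esam (endothelial) and Adgre1, Cd68, C1qa, Fcgr1 and Itgam (macrophage) also overlapped. Of the T and NK cell markers only Cd4 and Cd28 were higher in each transgenic library than in these controls, and Cd8b1 was lower. Of the neutrophil markers only Csf3r and Mmp9 were higher in each. Mmp9 gave 0.898 and 1.80 CPM of the neutrophil sums in control replicates 2 and 3 and 2.15 to 3.93 CPM in transgenic libraries. Xcr1, Siglech, Ccr7 and Itgax (dendritic cell) overlapped. Zbtb46 gave 9.03 and 7.24 CPM of the dendritic cell sums in control replicates 2 and 3. The part of these cell types in the results was not tested.

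**Figure D5:**
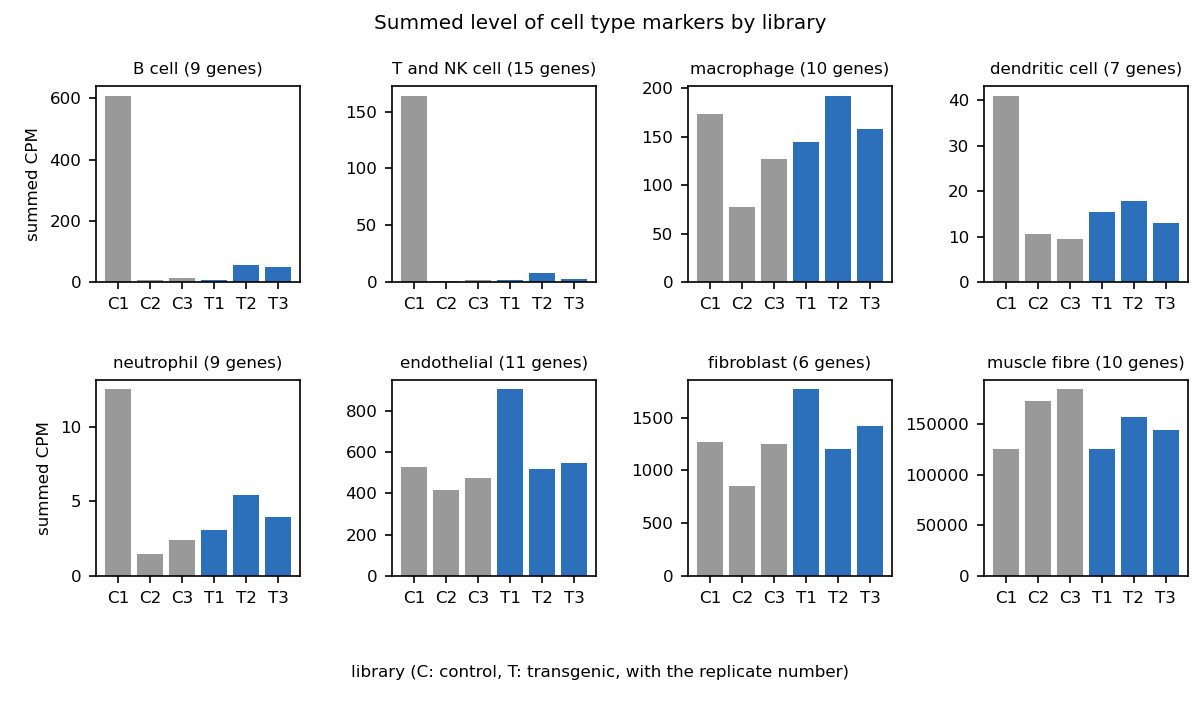
Summed CPM of each list of cell type markers by library (C for control, T for transgenic, with the replicate number). B cell and T and NK cell sums stand out in control replicate 1 and the endothelial sum in transgenic replicate 1. Macrophage, dendritic cell and neutrophil sums are lower in control replicates 2 and 3 than in any transgenic library.

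Other genes of the pathway were read from 6 lists. Interferon genes themselves were near absent. Of 15, 13 had 0 counts in each library, and Ifnk and Ifng had at most 1 count in a library, below the limit of 3 counts that a count of 0 allows. Of the 15 genes for interferon receptors and JAK-STAT signalling, 14 were tested and 0 passed with all libraries. With control replicate 1 left out, 2 rose and 1 fell. Over all genes, 1.30% passed with all 6 libraries, and 6.08% rose and 6.99% fell without control replicate 1. Ifngr1, a chain of the interferon gamma receptor, was at 54.6, 41.0 and 46.2 CPM in controls and at 71.7, 66.0 and 68.6 CPM in transgenic libraries, with no overlap (log2 fold change 0.66 ± 0.11, adjusted p = 0.0181). Ifnar2, a chain of the type I receptor, was at 11.4, 4.35 and 5.30 CPM in controls and at 12.1, 8.58 and 8.93 CPM in transgenic libraries, and rose by 1.03 ± 0.22 (adjusted p = 0.0283). The kinase gene Jak1 ran the other way, at 173, 243 and 229.9 CPM in controls and at 151, 179 and 184 CPM in transgenic libraries, and fell by 0.46 on the log2 scale (adjusted p = 0.0496). Of the 16 tested genes for nucleic acid sensing and its adaptors, 0 passed in either comparison. The kinase gene Ikbke, with the smallest p of that list, was at 17.5, 0.851 and 1.38 CPM in controls and at 2.56, 3.15 and 2.12 CPM in transgenic libraries. It was highest by far in control replicate 1, and its adjusted p without that library was 0.0502.

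Among 49 tested further interferon-stimulated genes, 1 passed with all 6 libraries, as higher, near the 1.30% of all genes that passed in either direction. Gbp10, a guanylate-binding gene, was at 2.71, 2.41 and 2.03 CPM in controls and at 6.74, 5.96 and 7.73 CPM in transgenic libraries (log2 fold change 1.51 ± 0.21, adjusted p = 0.0289). Its low and high values followed the groups, and control replicate 1 did not stand apart. Gbp10 has near-identical copies, Gbp6 among them, and its counts are uncertain for that reason. The log2 fold change of Gbp6 was -0.09 ± 0.23 with all 6 libraries. On the 5 libraries without control replicate 1, 10 of the 49 rose and 0 fell, with a median log2 fold change of 0.56. Among all genes 6.08% rose and 6.99% fell there. After Gbp10 the smallest p belonged to Ifi27l2a, at 23.98, 5.72 and 6.27 CPM in controls and 14.9999, 22.8 and 12.5 CPM in transgenic libraries (1.48 ± 0.27, adjusted p = 0.0210). Ifi47, an immunity-related GTPase gene, was at 10.2, 0.945 and 1.198 CPM in controls and at 2.60, 2.42 and 2.203 CPM in transgenic libraries (1.16 ± 0.27, adjusted p = 0.0355). Parp10, an ADP-ribosyltransferase gene, was at 12.4, 4.16 and 4.70 CPM in controls and at 7.77, 7.08 and 7.21 CPM in transgenic libraries (0.73 ± 0.17, adjusted p = 0.0370). In these 3 genes control replicate 1 was the highest library and the other controls were the lowest.

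Of the 23 tested genes for antigen processing and other class I chains, 0 passed with all libraries. Without control replicate 1, 3 of the 23 rose, against 6.08% of all genes. Nlrc5, which encodes the transactivator of class I genes, was at 20.9, 2.03 and 1.43 CPM in controls and at 3.68, 4.41 and 3.44 CPM in transgenic libraries. Like Tap1, it was highest in control replicate 1 and lowest in the other controls, with log2 fold changes of -1.10 ± 0.91 with all libraries (adjusted p = 0.518) and 1.15 ± 0.26 (adjusted p = 0.0339). H2-T22, a nonclassical class I chain, was at 29.3, 12.1 and 14.9 CPM in controls and at 23.6, 26.2 and 18.1 CPM in transgenic libraries (0.74 ± 0.19, adjusted p = 0.0458). Fcgrt, the heavy chain of the neonatal Fc receptor, was at 67.7, 43.9 and 54.9 CPM in controls and at 70.4, 72.5 and 64.8 CPM in transgenic libraries (0.49 ± 0.13, adjusted p = 0.0496). MHC class II genes are carried by professional antigen-presenting cells. None of the 9 tested passed in either comparison, and their median log2 fold change was -1.27 with all libraries and 0.29 without control replicate 1. Control replicate 1 exceeded both other controls in 9 of the 9. Transgenic replicate 1 exceeded both other transgenic libraries in 0 of the 9, with a median ratio to their mean of 0.303. The class II transactivator gene Ciita was at 24.5 CPM in control replicate 1 and at 0.803 to 2.04 CPM elsewhere.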

How the data were processed

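Per the labels, Trizol was used to take RNA from frozen gastrocnemius, and libraries were made with an NEBNext Ultra kit. HISAT2 2.0.5, featureCounts 1.5.0-p3 and build GRCm38 are named in the submitters' processing notes. The sources used here do not give the strand setting or the annotation. The deposited counts are whole numbers per gene, and the deposited FPKM values are scaled by gene length and library size, per the file headers.

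The test was edgeR 4.0.16 (R 4.3.3; TMM, filterByExpr, quasi-likelihood, two-sided) on the counts, with Benjamini-Hochberg adjustment over the 14973 genes kept from all 6 libraries. The same genes, and CPM on one common scaling, were used without control replicate 1. Each SE is the absolute log2 fold change over the root of F. Alternatives were DESeq2 1.42.0, limma 3.58.1 (voom, and log2(FPKM + 1) or log2(FPKM + 0.1)), other scalings and filters, a replicate block and fits without each library. Scripts were tested on simulated data. Within groups no pair of libraries was a duplicate, with chi-square per degree of freedom from 11.8 to 87.3. Count floors cover counting error only.

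Members, lists and the choice to leave out control replicate 1 were made with earlier results of these data known. Values per library follow a rule: each member past the threshold in either fit, the member of highest FPKM in each role, up to 4 genes past the threshold per further list or else the gene of smallest p. A gene that the rule also names is not reported here. Of the members shown per library, Rsad2, H2-K1, H2-D1, Oasl2, Bst2 and Oas3 fall outside that rule. They were chosen after their values were seen.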

Additional observations from a re-analysis of the deposited data

How the results depend on the processing

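With all 6 libraries, the number of all genes called was 194. It was 1065 in DESeq2, 124 with no filter on low counts, 112 and 121 by limma on log2(FPKM + 1) and log2(FPKM + 0.1), and 0 to 1956 without single libraries. The members called were 1 in DESeq2 and 0 to 6 without single libraries, where only the fit without control replicate 1 called any, and 0 under the other settings. The replicate number was not used as a pairing in the main test. Deviations from group means correlated at -0.003, -0.152 and 0.173 for equal numbers, and not every library correlated best with its own number. These deviations sum to 0 within a group, so the correlations cannot decide whether libraries of equal number were paired. The replicate block gave 5 genes and 0 members.

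Without control replicate 1, 1956 genes and 6 members passed. DESeq2 called 2774 genes and 15 members, library totals alone 3390 genes (3031 higher, 359 lower, against 910 and 1046) and 26 members, and no filter 1014 genes. Leaving out a further library gave 12 to 3269 genes and 0 to 12 members. Without transgenic replicate 1 it was 12 members, including all 6. The 6 members remained called in DESeq2, limma-voom, both other scalings and a filter set on the 5 libraries (added after seeing the data), and 4 of the 6 with no filter. Library totals moved the median of all genes to 0.27 and of the members to 1.03 there, and to 0.12 and 0.30 with all 6 libraries.

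Signs turned for 19 members with all 6 libraries. Values turned positive in limma-voom for Irf1 (0.022), Parp14 (0.059), Tap1 (0.030), H2-D1 (0.15) and H2-T23 (0.16). They did so with the replicate block (0.033, 0.064, 0.065, 0.14 and 0.17 in the same order) and on log2(FPKM + 0.1) (0.049, 0.064, 0.044, 0.14 and 0.17). On log2(FPKM + 1) Parp14 (0.012), H2-D1 (0.13) and H2-T23 (0.14) turned, and with library totals Parp14 (0.014) and H2-D1 (0.024). Without single libraries the ranges were -0.56 to 0.65 (Irf1), -0.39 to 0.24 (Irf9), -1.18 to 0.88 (Mx1), -0.33 to 0.57 (Parp14), -1.18 to 1.14 (Tap1), -0.78 to 0.71 (H2-K1), -0.31 to 0.67 (H2-D1), -0.39 to 0.76 (H2-T23), -0.080 to 0.72 (Stat2), -0.10 to 0.98 (Oas1a), -0.13 to 1.04 (Ddx58), -0.063 to 1.17 (Dhx58), -0.18 to 0.66 (Gbp2), -0.29 to 0.78 (Gbp3), -0.11 to 0.88 (Tap2), -0.024 to 0.40 (Tapbp), -0.18 to 0.78 (B2m), -0.12 to 0.65 (Isg15) and -0.11 to 0.80 (Irf7). Without control replicate 1, 2 members turned, Ifi35 (-0.018 to 0.29 without a further library) and Isg20 (-0.26 to 0.0027, and 0.13 with library totals). The cause was not tested. With 3 libraries or fewer per group, a change larger than its SE is not by that alone told from the spread. Without control replicate 1, 6 members passed in edgeR, and some changes well above their SEs did not. Among the latter were the log2 fold changes of Stat2 (0.72 ± 0.23, edgeR adjusted p = 0.0742) and H2-D1 (0.67 ± 0.20, edgeR adjusted p = 0.0621).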
